A study of Arabidopsis thaliana with 12 samples.

Results

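This comparison set basal inflorescence stems of the c3h14c3h15 double mutant of Arabidopsis thaliana against stems of the wild type, WT. The members are all arrays whose titles name the double mutant or the wild type. They are 6 of the 12 arrays of the series, 3 of each genotype, and the other 6 are 3 arrays each of plants that overexpress C3H14 (C3H14-OE) or C3H15 (C3H15-OE). All plants were of ecotype Col-0 and stood next to each other in a glasshouse at 22 °C with 16 h of light and 8 h of dark. Total RNA was taken from the lowest 4 cm of stems 12 to 17 cm tall, and 200 ng of it was labelled by a 3′ in vitro transcription kit for 1 Affymetrix array per sample. The titles call the arrays of a genotype biological replicates. The limma p-values below set each difference against the spread between such arrays, pooled over the 4 genotypes. The labels give neither the mutant alleles nor the promoter of the overexpression constructs. The growth stage is given only as stem height, and no time of day is given for the harvest.

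C3H14 and C3H15 are related tandem CCCH zinc finger proteins. In mammals, proteins of this kind bind AU-rich sequences of messenger RNAs and speed their decay, and in plants several members act in development and stress responses. The base of an inflorescence stem is the place where fibres and vessels lay down thick secondary walls of cellulose, xylan and lignin. The stem is also a green organ whose outer cortex, the chlorenchyma, carries out photosynthesis. The submitters' own text names secondary walls and pollen formation as the themes of the series, and loss of both genes was the loss-of-function arm of the study.

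A pair of arrays stood apart before any gene was compared. WT replicate 1 and mutant replicate 3 gave a log2 intensity of 6.78 to 6.90 for the middle probe set of dap, against 8.09 to 8.54 on the other 10 arrays. Dap is a bacterial transcript with a poly-A tail that serves as a labelling control on these arrays. Its 3′ probe set exceeded its 5′ probe set by 3.53 to 3.79 on that pair and by 1.97 to 2.15 on the others. The probe set for 25S ribosomal RNA read 9.82 to 10.19 on the pair and 11.52 to 12.22 on the others. The pair holds 1 array of each genotype, so results are given below with both arrays and without them. Another 6 pairs of 5′ and 3′ control probe sets cover only the Arabidopsis genes for actin, GAPDH and ubiquitin, each with more than 1 pair. For these pairs the difference between genotypes in 3′ minus 5′ signal lay between -0.29 and 0.02 (exact permutation test, two-sided, p from 0.1 to 1, where 3 against 3 arrays cannot go below 0.1). All values below are log2 intensities, and a difference is the mutant mean minus the WT mean.

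The targeted genes gave little check of the labels. C3H14 (AT1G66810) read 7.01, 6.12 and 7.43 on the WT arrays and 6.55, 6.43 and 6.08 on the mutant arrays. The groups overlapped, and the difference of -0.50 did not pass (SE 0.45, adjusted p = 0.583). A 3′ probe set can read a transcript that is interrupted elsewhere, and the probe set of C3H15 is not named here. Both loci lie on chromosome 1, and of the 80 named genes from one to the other 4 were called. These 4 are 5% of the stretch, against 5.51% of the named genes of the whole chromosome.

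Of 22746 probe sets tested, 575 were higher and 721 lower in the mutant at an adjusted p under 0.05 (limma, Benjamini-Hochberg adjustment). That is 5.7% of all probe sets, 2.53% higher and 3.17% lower. A further threshold of 2-fold left 184 higher (0.809%) and 106 lower (0.466%). The median difference over all probe sets was -0.01, and among the calls it was 0.79 for the rises and -0.62 for the falls. The mutant arrays did not overlap the WT arrays for 1294 of the 1296 calls, while 23.9% of all probe sets had arrays that did not overlap, 10.8% with the mutant above and 13.1% with it below. Only 666 of the calls were on probe sets with 1 named gene, 269 higher and 397 lower, and the text names genes from these alone.

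Without WT replicate 1 and mutant replicate 3, 5 probe sets were higher and 3 lower, with 2 arrays left in each group. All 1296 calls kept their sign there, and 8 of them passed. For the 1294 calls whose groups did not overlap, leaving arrays out could not reverse the sign. With both arrays kept and a term for them in the model, 619 were higher and 875 lower, and 1224 of the 1296 calls remained. The difference between mutant replicate 3 and WT replicate 1 and that between the other mutant and WT arrays had the same sign for all 1296 calls. For the 1294 calls without overlap that outcome was fixed as well, so it gives them no support. Removing single arrays moved the counts as well. With WT replicate 1 removed 197 probe sets were higher and 164 lower, with WT replicate 2 removed the counts were 237 and 238, and mutant replicate 3, once removed, left 264 and 356. Without WT replicate 3 the lower count was 469, and without mutant replicate 1 it was 446. Scaling moved the balance of the calls: 44.4% were rises with the deposited scaling, 58.7% after cyclic loess and 63.7% after subtracting each array's median.

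**Figure D1:**
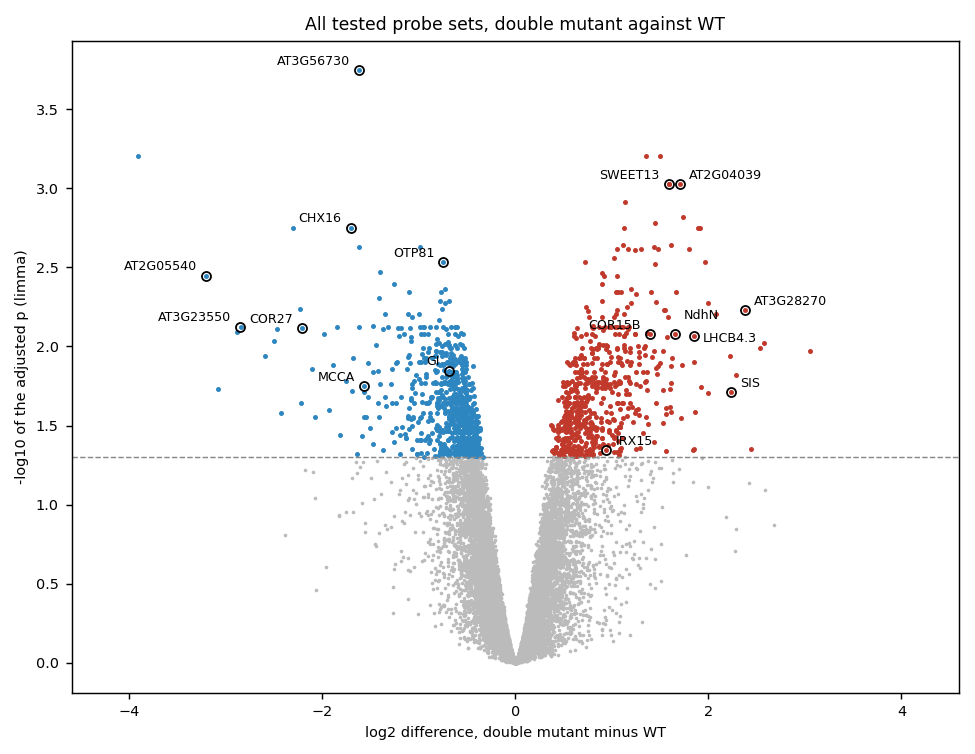
Each point is 1 of the 22746 probe sets, with the log2 difference of the mutant from WT on the x axis and minus log10 of the limma adjusted p on the y axis (dashed line at 0.05). Red points are the 575 higher and blue points the 721 lower probe sets, and circles mark genes named in the text. AT3G56730 has the smallest adjusted p, 0.00018, and AT2G05540 the largest fall of the named genes, -3.21.

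The mutant arrays also differed from the overexpressor arrays at most of these probe sets. Against the mean of C3H14-OE and C3H15-OE, 2725 probe sets were higher (12.0%) and 3072 lower (13.5%) in the mutant, 25.5% of all. After subtracting array medians, after which the median of all differences was 0.12, the counts were 4619 higher and 2147 lower. Of the 1296 calls against WT, 1090 (84.1%) were also called in the same direction there, 499 higher and 591 lower. One was called the opposite way, and 205 were not called. Both comparisons use the same mutant arrays, so the second is not independent of the first. A call against this mean does not place the mutant beyond each overexpressor.

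The rises included genes of the chloroplast electron transport chain. All 4 named genes on a list for the chloroplast NADH dehydrogenase-like (NDH) complex rose, by 0.63 to 1.70, with a median of 1.59. This complex returns electrons from the stroma to the plastoquinone pool around photosystem I. Counted by the brightest probe set of each named gene, 2.0% of all genes tested rose and 2.94% fell, 4.94% together. The array names 4 of the 18 genes on the list, which was drawn up with earlier results of these data known. These 4 are nuclear genes. Other subunits of the complex are encoded by the plastid genome and are counted with it below, and none of them passed. Among them were ndhF at 0.04 (limma adjusted p = 0.973) and ndhK at 0.65 (adjusted p = 0.426).

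NdhN, a subunit of the complex, read 6.80, 6.65 and 6.5 in WT and 8.29, 8.33 and 8.28 in the mutant. The 3 mutant arrays lay within 0.06 of each other and well above every other array of the series, of which C3H14-OE replicate 1 was the highest at 6.99. NdhN was 3.14-fold higher in the mutant (1.65, SE 0.26, adjusted p = 0.00832). NdhL, a small membrane subunit, read 6.39, 6.82 and 6.91 in WT and 8.11, 8.30 and 8.29 in the mutant. Its WT arrays spread more, but the groups did not overlap, and it rose by 1.53 (SE 0.31, adjusted p = 0.019). NdhS, which forms the ferredoxin-binding site of the complex, read 9.26, 9.23 and 8.92 in WT and 9.61, 9.91 and 9.79 in the mutant. It rose by 0.63 (SE 0.14, adjusted p = 0.023), the smallest rise on the list. AT2G04039, on the list by its locus and without a symbol in the annotation used, read 6.65, 6.47 and 6.72 in WT and 8.30, 8.22 and 8.43 in the mutant. It rose by 1.70 (SE 0.16, adjusted p = 0.000946), and its groups were separated by 1.5.

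The NDH calls differed in how far they depended on single arrays. NdhN and AT2G04039 remained called when any 1 of the 12 arrays was left out. NdhL was lost without WT replicate 1, WT replicate 2 or mutant replicate 3, and NdhS in 5 of the 12 cases. Without both low-spike arrays the 4 differences were 0.68 to 1.74, with adjusted p-values of 0.0503 for AT2G04039, 0.086 for NdhN, 0.123 for NdhS and 0.167 for NdhL. In the overexpressors the same genes stood at -0.69 to 0.12 relative to WT, and none of these differences passed.

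Of 27 genes whose names mark a plastid protein, 8 rose and 0 fell, with a median of 0.42. This list was added with the values known and holds NdhN, NdhL, NdhS and LHCB4.3, described under other lists, as well. PIFI, a chloroplast protein named for the post-illumination rise of chlorophyll fluorescence and needed for NDH activity, read 9.85, 10.02 and 9.64 in WT and 11.08, 10.84 and 10.97 in the mutant. It rose by 1.13 (SE 0.22, adjusted p = 0.0157). CRR42, named for chlororespiratory reduction and needed for assembly of the NDH complex, read 5.58, 4.45 and 4.72 in WT and 5.84, 6.17 and 6.46 in the mutant. WT replicate 1 came within 0.26 of the lowest mutant array, and CRR42 rose by 1.24 (SE 0.28, adjusted p = 0.0264). HCF101, which delivers iron-sulfur clusters to photosystem I, rose by 0.74 (SE 0.17, adjusted p = 0.0283), and PGL34, a structural protein of plastoglobules, by 0.52 (SE 0.11, adjusted p = 0.024). Without both low-spike arrays these 4 genes stood at 0.46 to 1.42, with adjusted p-values of 0.0723 to 0.172.

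Of 7 named genes for light harvesting and the photosystems, 1 rose, and all 7 had a difference above 0, with a median of 0.52. LHCB4.3, a minor antenna protein of photosystem II, read 7.83, 7.32 and 8.20 in WT and 9.13, 10.09 and 9.67 in the mutant. The groups did not overlap, and it was 3.60-fold higher (1.85, SE 0.30, adjusted p = 0.00861). Its relatives LHCB4.1 and LHCB4.2, which were among the brightest probe sets, stood at 0.30 (adjusted p = 0.201) and 0.43 (adjusted p = 0.265). PSBY of photosystem II stood at 0.75 (adjusted p = 0.0507) and PSAE-1 of photosystem I at 0.64 (adjusted p = 0.0706), both just short of the threshold.

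In the Calvin cycle, which fixes carbon dioxide, 1 of 3 named genes rose. SBPASE, sedoheptulose-bisphosphatase of the regeneration phase, read 8.91, 8.70 and 9.17 in WT and 9.88, 10.57 and 10.16 in the mutant. It rose by 1.28 (SE 0.23, adjusted p = 0.0129) and lost the call without WT replicate 1 or WT replicate 2. PRK, phosphoribulokinase, stood at 0.78 (adjusted p = 0.0669) and RCA, rubisco activase, at 0.53 (adjusted p = 0.06), and neither overlapped between groups. Among 8 thioredoxins the plastid forms ty2 and NTRC rose, by 0.55 (SE 0.11, adjusted p = 0.0198) and 0.53 (SE 0.11, adjusted p = 0.023). Transcripts of the plastid genome itself showed no call: of 69 named genes 0 passed, 53 lay above 0, and the median was 0.23. By limma 2 of the 69 had an unadjusted p under 0.05, against 4957 of all 22746 probe sets. Both low-spike arrays moved these transcripts: for 56 of the 69 they lay below all 4 other mutant and WT arrays, with psbT at 3.93 and 3.37 against 7.16 to 7.81. The SE of the difference reached 1.08 for psbT. Without both arrays 0 passed, 5 had an unadjusted p under 0.05, and the median was 0.20. With a term for both arrays 2 passed, petG of the cytochrome b6f complex at 0.98 (SE 0.22, adjusted p = 0.0294) and atpI of the ATP synthase at 0.76 (SE 0.19, adjusted p = 0.0404).

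SBPASE, PRK and RCA are also 3 of the 7 markers listed for chlorenchyma. Their summed intensity was 5177 to 6103 on the WT arrays and 8236 to 10067 on the mutant arrays, without overlap. In RNA from whole stem pieces, more (or fewer) cells of a type and more (or less) RNA per cell cannot be told apart. The part that the share of green tissue plays in these rises was not tested.

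**Figure D2:**
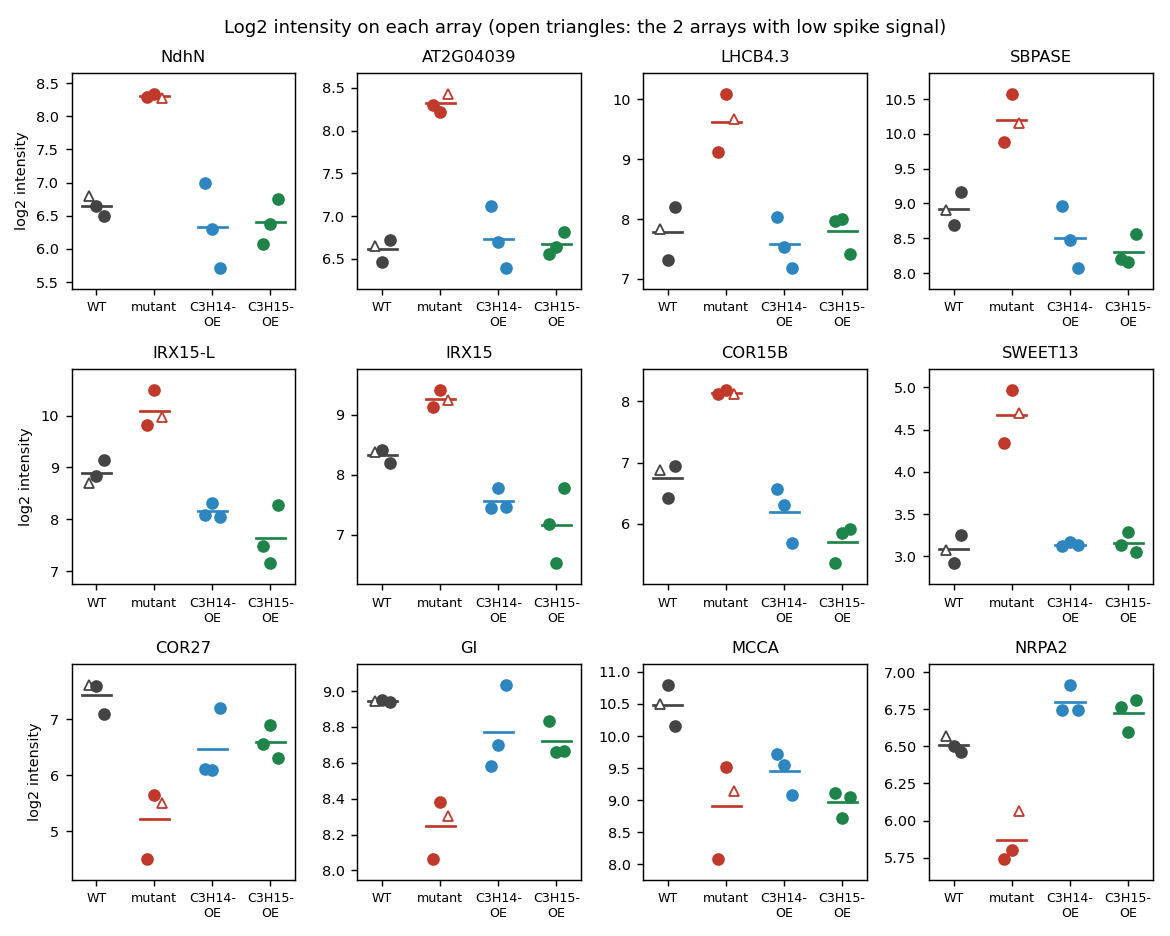
Each panel shows the log2 intensity (y axis) of 1 gene on the 12 arrays, by genotype (x axis), with a bar at the group mean. Open triangles are WT replicate 1 and mutant replicate 3. NdhN and AT2G04039 are higher on the 3 mutant arrays than on all other arrays, COR27, GI and NRPA2 are lower, and for MCCA the mutant overlaps the overexpressors.

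Xylan is the main hemicellulose of secondary walls in these stems. Of 24 genes listed for its synthesis the array names 4, and 2 of them rose, with a median of 0.76 over the 4. IRX15-L read 8.70, 8.84 and 9.14 in WT and 9.82, 10.50 and 9.98 in the mutant. Its close relative IRX15 read 8.39, 8.41 and 8.19 in WT and 9.14, 9.42 and 9.25 in the mutant. Both encode DUF579 proteins needed for normal xylan, and neither overlapped between groups. IRX15-L was 2.3-fold higher (SE of the log2 difference 0.26, adjusted p = 0.0242) and IRX15 was 1.92-fold higher (SE 0.24, adjusted p = 0.0454).

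These xylan calls were fragile. IRX15 remained called in 3 of the 12 cases with 1 array left out, and IRX15-L was lost without WT replicate 1, WT replicate 2, mutant replicate 2 or mutant replicate 3. Without both low-spike arrays IRX15 stood at 0.98 (adjusted p = 0.203) and IRX15-L at 1.17 (adjusted p = 0.16). IRX10, a xylan xylosyltransferase listed as GUT2, read 8.75, 8.62 and 9.0 in WT and 9.38, 9.34 and 9.37 in the mutant, and its difference of 0.57 did not pass (adjusted p = 0.173). IRX10L, its close relative, read 7.83, 7.65 and 7.94 in WT and 7.86, 8.19 and 8.08 in the mutant, and with overlapping groups its difference of 0.23 did not pass (adjusted p = 0.253). Against the overexpressors, with the same mutant arrays, IRX15-L was higher by 2.21 (adjusted p = 0.000202), IRX15 by 1.91 (adjusted p = 0.00028) and IRX10 by 1.34 (adjusted p = 0.00104).

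IRX15 and IRX10 are the 2 named markers, of 19, for fibre and xylem walls, and their summed intensity was 734 to 805 in WT and 1230 to 1334 in the mutant. No cellulose synthase of the secondary wall, no secondary wall regulator and no gene of xylem cell death had a named probe set. Among 23 named genes of the trichome birefringence-like family, many of which acetylate wall polysaccharides, TBL38 rose by 0.62 (SE 0.15, adjusted p = 0.0351) and TBL25 by 0.49 (SE 0.13, adjusted p = 0.0447). GH9B5, an endoglucanase of glycosyl hydrolase family 9, read 6.66, 6.38 and 7.37 in WT and 8.55, 8.31 and 7.91 in the mutant. It rose by 1.45 (SE 0.31, adjusted p = 0.0229).

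Of 7 named lignin genes 1 rose and 1 fell. HCT, the transferase that feeds the pathway to guaiacyl and syringyl units, read 10.18, 10.38 and 10.15 in WT and 11.13, 10.57 and 10.81 in the mutant. It rose by 0.60 (SE 0.15, adjusted p = 0.0453) and remained called in 2 of the 12 cases with 1 array left out. CCOAMT (AT1G67980), annotated as a caffeoyl-CoA methyltransferase, read 6.63, 7.28 and 5.42 in WT and 4.61, 4.36 and 4.91 in the mutant. Its WT arrays spread over 1.86, about as wide as its fall of 1.82 (SE 0.44, adjusted p = 0.0365), and it is 1 of the 4 called genes between the C3H14 and C3H15 loci.

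Other wall families showed no call. None of 7 tubulins, 10 xyloglucan endotransglucosylases, 19 expansins, 8 cellulose synthase-like genes, 4 pectin enzymes or 7 peroxidases passed in limma. Their medians lay between 0.01 and 0.17. In the same fit, 0 tubulins, 2 xyloglucan endotransglucosylases, 3 expansins, 2 cellulose synthase-like genes, 1 pectin enzyme and 1 peroxidase had an unadjusted p under 0.05. Over all probe sets, 4957 of 22746 did. Of the 4 named tapetum and pollen wall genes 0 passed, and all were dim in these stems, with WT means of 1.96 to 3.34.

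Of 33 genes listed for the circadian clock the array names 4, of which 3 fell and 0 rose, with a median of -1.34. The clock sets daily rhythms of transcripts, so levels depend on the hour of sampling, which was not given. COR27, a cold- and clock-regulated repressor that acts in the evening, read 7.61, 7.59 and 7.09 in WT and 4.51, 5.64 and 5.5 in the mutant. The highest mutant array lay 1.44 below the lowest WT array, and COR27 was 4.63-fold lower (-2.21, SE 0.34, adjusted p = 0.00769). AT4G33980, on the list by its locus, read 8.24, 8.74 and 7.92 in WT and 5.5, 7.05 and 6.39 in the mutant. It fell by 1.98 (SE 0.32, adjusted p = 0.00832). For both genes mutant replicate 1 was the lowest array of the series.

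GI, GIGANTEA, which acts in the evening and promotes flowering, read 8.94, 8.95 and 8.94 in WT and 8.06, 8.38 and 8.31 in the mutant. It fell by 0.69 (SE 0.13, adjusted p = 0.0143). RVE6, a MYB activator of evening genes, stood at -0.33 (adjusted p = 0.135). COR27 and AT4G33980 remained called with any 1 array left out, and GI was lost without WT replicate 1. Without both low-spike arrays the 3 called genes stood at -2.27, -2.05 and -0.72, with adjusted p-values of 0.0848, 0.0933 and 0.107. The overexpressors also lay below WT. C3H14-OE and C3H15-OE stood at -0.97 and -0.84 for COR27, -0.54 and -0.94 for AT4G33980, and -0.17 and -0.22 for GI. Against their mean the mutant stood at -1.31, -1.25 and -0.50 for the 3 genes (limma adjusted p = 0.00838, 0.00729 and 0.00845).

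The cold-induced gene COR15B went the other way from COR27. COR15B encodes a chloroplast protein that protects membranes during freezing. It read 6.87, 6.43 and 6.95 in WT and 8.13, 8.19 and 8.11 in the mutant. The mutant arrays lay within 0.08 of each other and at least 1.17 above WT, and COR15B was 2.63-fold higher (1.4, SE 0.22, adjusted p = 0.00839). It remained called with any 1 array left out, and without both low-spike arrays it stood at 1.47 (adjusted p = 0.086). Its neighbour in function COR15A stood at 1.3 without passing (adjusted p = 0.112), LTI30 at 0.75 (adjusted p = 0.407) and COR47 at 0.14 (adjusted p = 0.66). Thus 1 of 4 named genes of the cold and abscisic acid list rose.

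Sugar transporters of the SWEET family moved in both directions. Of 17 genes picked by name 2 rose and 1 fell, with a median of 0.16. They include SWEETIE, which matched by name only and is not a SWEET transporter. It did not pass (-0.30, limma adjusted p = 0.512). SWEET13, a plasma membrane sucrose exporter, read 3.07, 2.92 and 3.26 in WT and 4.35, 4.97 and 4.69 in the mutant. On the 6 overexpressor arrays it read 3.05 to 3.28, within or next to the WT range, so that the 3 mutant arrays alone were high. It rose by 1.59 (SE 0.15, adjusted p = 0.000946) from a dim level, and without both low-spike arrays it stood at 1.57 (adjusted p = 0.0503). SWEET1, a glucose transporter, read 5.67, 5.98 and 5.96 in WT and 7.44, 6.64 and 6.72 in the mutant. It rose by 1.06 (SE 0.19, adjusted p = 0.0126).

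SWEET16, a vacuolar sugar transporter, read 6.88, 7.07 and 6.65 in WT and 5.23, 6.38 and 5.8 in the mutant. It fell by 1.07 (SE 0.27, adjusted p = 0.0448). The overexpressors were low as well, C3H14-OE at -0.88 and C3H15-OE at -1.56 relative to WT. The difference of the mutant from their mean did not pass (0.15, adjusted p = 0.666). SWEET11, the partner of SWEET12 in phloem loading, read 7.45, 7.63 and 6.62 in WT and 8.61, 7.79 and 8.48 in the mutant, and its difference of 1.06 did not pass (adjusted p = 0.115). ATSPS4F, named as a sucrose phosphate synthase, read 3.84, 3.37 and 3.68 in WT and 4.97, 5.0 and 5.24 in the mutant. The groups did not overlap, and it rose by 1.44 (SE 0.25, adjusted p = 0.0106). No named probe set covered the 5 phloem markers.

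Of 10 named genes for the breakdown of leucine and other branched-chain amino acids, 4 fell and 1 rose, with a median of -0.37. This mitochondrial pathway degrades branched-chain amino acids and is known to be switched on when plant cells are short of sugar. MCCA, the biotin-carrying subunit of methylcrotonyl-CoA carboxylase, read 10.50, 10.79 and 10.15 in WT and 8.09, 9.51 and 9.15 in the mutant. Mutant replicate 1 was 1.06 below the next mutant array, and MCCA fell by 1.57 (SE 0.31, adjusted p = 0.0178). IVD, isovaleryl-CoA dehydrogenase, which acts just before it, read 9.54, 9.98 and 9.19 in WT and 8.22, 8.79 and 8.57 in the mutant. It fell by 1.04 (SE 0.21, adjusted p = 0.0197).

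MCCB, the other subunit of the carboxylase, fell by 0.79 (SE 0.19, adjusted p = 0.0367). ETFQO, which passes electrons from IVD to ubiquinone, fell by 0.79 as well (SE 0.21, adjusted p = 0.0485). AT5G09300, on the list by its locus, rose by 0.92 (SE 0.19, adjusted p = 0.0182). Without both low-spike arrays the 4 falls stood at -1.67 to -0.80, with adjusted p-values of 0.121 to 0.21. ETFQO remained called in 1 of the 12 cases with 1 array left out, and MCCA was lost without WT replicate 1 or WT replicate 2. The list was added with the values known. Against the overexpressors the 4 genes stood at -0.50 to -0.21, and none passed.

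**Figure D3:**
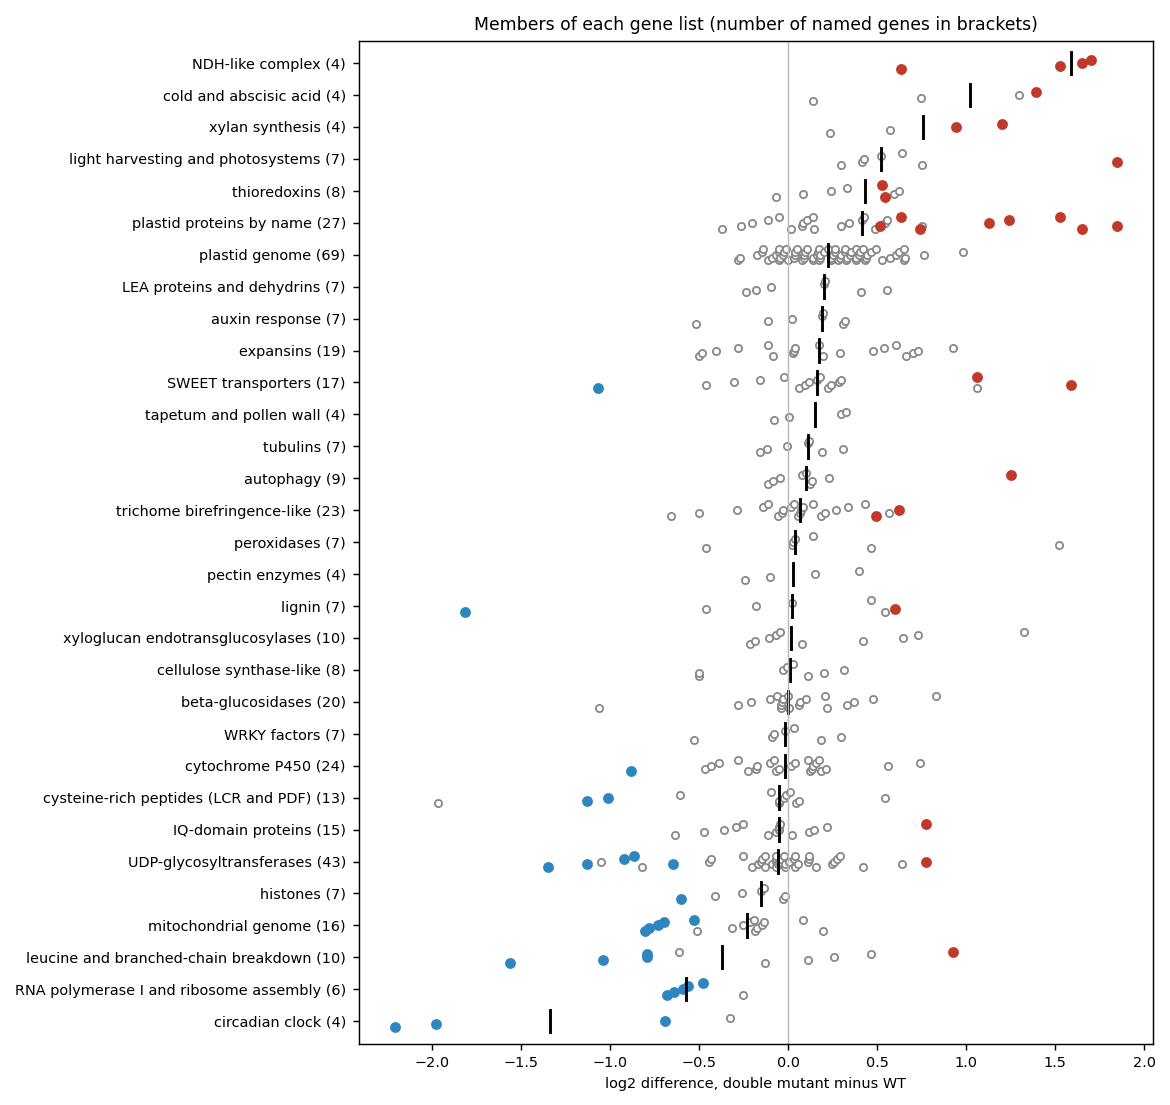
Each row is a gene list with 4 or more named genes, and each circle the log2 difference of 1 gene, mutant minus WT (x axis). Filled red circles rose, filled blue circles fell and open circles did not pass, and the black bar is the median of the list. The mitochondrial genome is shown by 1 probe set per gene. The NDH-like complex has the highest median, 1.59, and the circadian clock the lowest, -1.34, with 4 named genes each.

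Of 6 named genes for RNA polymerase I and ribosome assembly, 5 fell, with a median of -0.58. NRPA2, the second largest subunit of RNA polymerase I, which transcribes ribosomal RNA genes, read 6.57, 6.5 and 6.46 in WT and 5.74, 5.8 and 6.06 in the mutant. It fell by 0.64 (SE 0.11, adjusted p = 0.0113), and NRPA1, the largest subunit, by 0.59 (SE 0.14, adjusted p = 0.0349). PCN, a nucleolar WD-repeat protein named POPCORN, read 7.24, 7.14 and 7.22 in WT and 6.66, 6.54 and 6.72 in the mutant. It fell by 0.56 (SE 0.10, adjusted p = 0.0115). RRP41, a core subunit of the RNA exosome, fell by 0.48 (SE 0.11, adjusted p = 0.029) and RBL by 0.68 (SE 0.14, adjusted p = 0.0172), while RRP41L stood at -0.25 (adjusted p = 0.232).

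NRPA2 and PCN remained called with any 1 array left out. Without both low-spike arrays the 5 genes stood at -0.76 to -0.39, with adjusted p-values of 0.0723 for NRPA2 to 0.206 for NRPA1. This list too was added with the values known. In both overexpressors NRPA2 and NRPA1 lay above WT, by 0.21 to 0.40, without passing.

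Mitochondrial genome transcripts were lower at several probe sets. Of 23 such probe sets 8 fell and 0 rose, 20 had a difference below 0, and the median was -0.25. Over all probe sets 3.17% fell. Several of the 23 read the same gene, and by the brightest probe set of each gene 5 of 16 fell. Of all named genes counted that way 2.94% fell. The 23 probe sets had a median of 0.01 in C3H14-OE and -0.01 in C3H15-OE relative to WT. The 8 calls were 3 probe sets of nad1, a pair of nad5 and 1 each of nad9, nad4L and ccb452, and all but ccb452, a cytochrome c maturation gene, encode parts of respiratory complex I. The nad1 probe set with the largest fall read 6.27, 6.22 and 6.40 in WT and 5.14, 5.51 and 5.26 in the mutant. It fell by 0.99 (SE 0.11, adjusted p = 0.00236) and remained called with any 1 array left out. Labelling from poly-A tails reads organelle transcripts only in part, and without both low-spike arrays this probe set stood at -0.98 (adjusted p = 0.0713). OTP81 is not part of this set: it is a nuclear gene for a pentatricopeptide repeat protein that edits chloroplast transcripts. It read 4.79, 4.88 and 4.88 in WT and 4.13, 4.08 and 4.09 in the mutant. It fell by 0.75 (SE 0.09, adjusted p = 0.00293).

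UDP-glycosyltransferases, which attach sugars to hormones and secondary metabolites, were called lower more often than higher. Of 43 named members 5 fell and 1 rose, with a median of -0.06. Calls over all 13355 named genes, counted by the brightest probe set, leaned the same way. Of these genes 393 fell (2.94%) and 267 rose (2.0%). UGT73B5 read 5.48, 5.10 and 5.26 in WT and 4.14, 3.67 and 3.96 in the mutant. The groups did not overlap, and UGT73B5 was 2.55-fold lower (-1.35, SE 0.19, adjusted p = 0.0062). UGT73B1 fell by 1.13 (SE 0.28, adjusted p = 0.038), UGT85A2 by 0.93 (SE 0.16, adjusted p = 0.0118), UGT76C2 by 0.86 (SE 0.20, adjusted p = 0.0293) and UGT71C5 by 0.65 (SE 0.16, adjusted p = 0.0433). UGT76C2 glycosylates cytokinins and UGT71C5 abscisic acid. UGT71B1 rose by 0.77 (SE 0.18, adjusted p = 0.0326). UGT84A3, which the list missed because it carries only a symbol, rose by 1.07 (SE 0.26, adjusted p = 0.0354). UGT73B5 and UGT85A2 remained called with any 1 array left out.

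Single calls came from other families, of which the autophagy and cysteine-rich peptide lists, like those of thioredoxins and the trichome birefringence-like family, were added with the values known. ATG8H, a ubiquitin-like protein of the autophagosome membrane, read 7.13, 7.09 and 6.99 in WT and 8.25, 8.61 and 8.10 in the mutant. It was the only one of 9 named autophagy genes to pass, with a rise of 1.25 (SE 0.17, adjusted p = 0.00464). TRY, a MYB repressor of trichome formation and the only named trichome marker, read 3.49, 3.99 and 3.29 in WT and 5.90, 4.36 and 5.36 in the mutant. Mutant replicate 2 lay only 0.37 above WT replicate 2, and TRY rose by 1.62 (SE 0.36, adjusted p = 0.0261). CHX16, a cation/proton exchanger, read 5.64, 5.82 and 5.84 in WT and 3.89, 4.40 and 3.88 in the mutant. It was 3.26-fold lower (-1.71, SE 0.18, adjusted p = 0.00178).

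Of 13 named cysteine-rich peptides, small secreted proteins with ties to defence, LCR69 fell by 1.01 (SE 0.23, adjusted p = 0.0302) and PDF1.4 by 1.13 (SE 0.28, adjusted p = 0.038). Iqd21, a calmodulin-binding scaffold protein, rose by 0.77 (SE 0.20, adjusted p = 0.0445), and CYP71B29, a cytochrome P450, fell by 0.88 (SE 0.22, adjusted p = 0.0388). They are 1 of 15 named IQ-domain genes (6.67%) and 1 of 24 named cytochrome P450 genes (4.17%), shares near the 4.94% of all named genes. HON4, annotated with the histones as a linker histone-like protein, fell by 0.60 (SE 0.15, adjusted p = 0.0372), 1 of 7 genes on that list. AOR, an alkenal/one oxidoreductase of the chloroplast, read 7.96, 7.81 and 7.79 in WT and 9.49, 9.19 and 9.53 in the mutant, and rose by 1.54 (SE 0.22, adjusted p = 0.00591). None of 20 beta-glucosidases, 7 LEA proteins, 7 WRKY factors, 7 auxin response genes or 3 calmodulin-like proteins passed. By limma 3, 2, 1, 2 and 0 of them, in that order, had an unadjusted p under 0.05. Over all probe sets, 4957 of 22746 did.

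Among probe sets with 1 named gene, some of the largest differences lay in genes for which the annotation used gives only a locus. The largest fall and rise of all, -3.92 and 3.05, were on probe sets without 1 named gene. AT2G05540 read 9.59, 9.09 and 9.33 in WT and 5.56, 6.49 and 6.33 in the mutant. It was 9.25-fold lower (-3.21, SE 0.41, adjusted p = 0.00357), and C3H15-OE stood at -2.74 on the same WT arrays (adjusted p = 0.00658). AT3G23550 read 7.64, 8.40 and 6.72 in WT and 4.52, 4.87 and 4.82 in the mutant. It fell by 2.85 (SE 0.44, adjusted p = 0.00751), while the C3H14-OE arrays read 9.81 to 10.36, above every WT array. AT3G28270 read 5.51, 4.73 and 5.57 in WT and 7.36, 7.88 and 7.68 in the mutant. It rose by 2.37 (SE 0.34, adjusted p = 0.00593), while C3H14-OE and C3H15-OE stood at 0.09 and 0.20.

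SIS, named salt induced serine rich, read 7.0, 7.41 and 6.60 in WT and 10.11, 8.13 and 9.47 in the mutant. It rose by 2.23 (SE 0.46, adjusted p = 0.0196), its overexpressor arrays were high as well, at 7.84 to 9.87, and its difference from them did not pass (0.42, adjusted p = 0.464). Mutant replicate 2 was the lowest mutant array for SIS and TRY and the highest for LHCB4.3 and SBPASE, which shows that the mutant arrays did not vary alike for all genes.

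**Figure D4:**
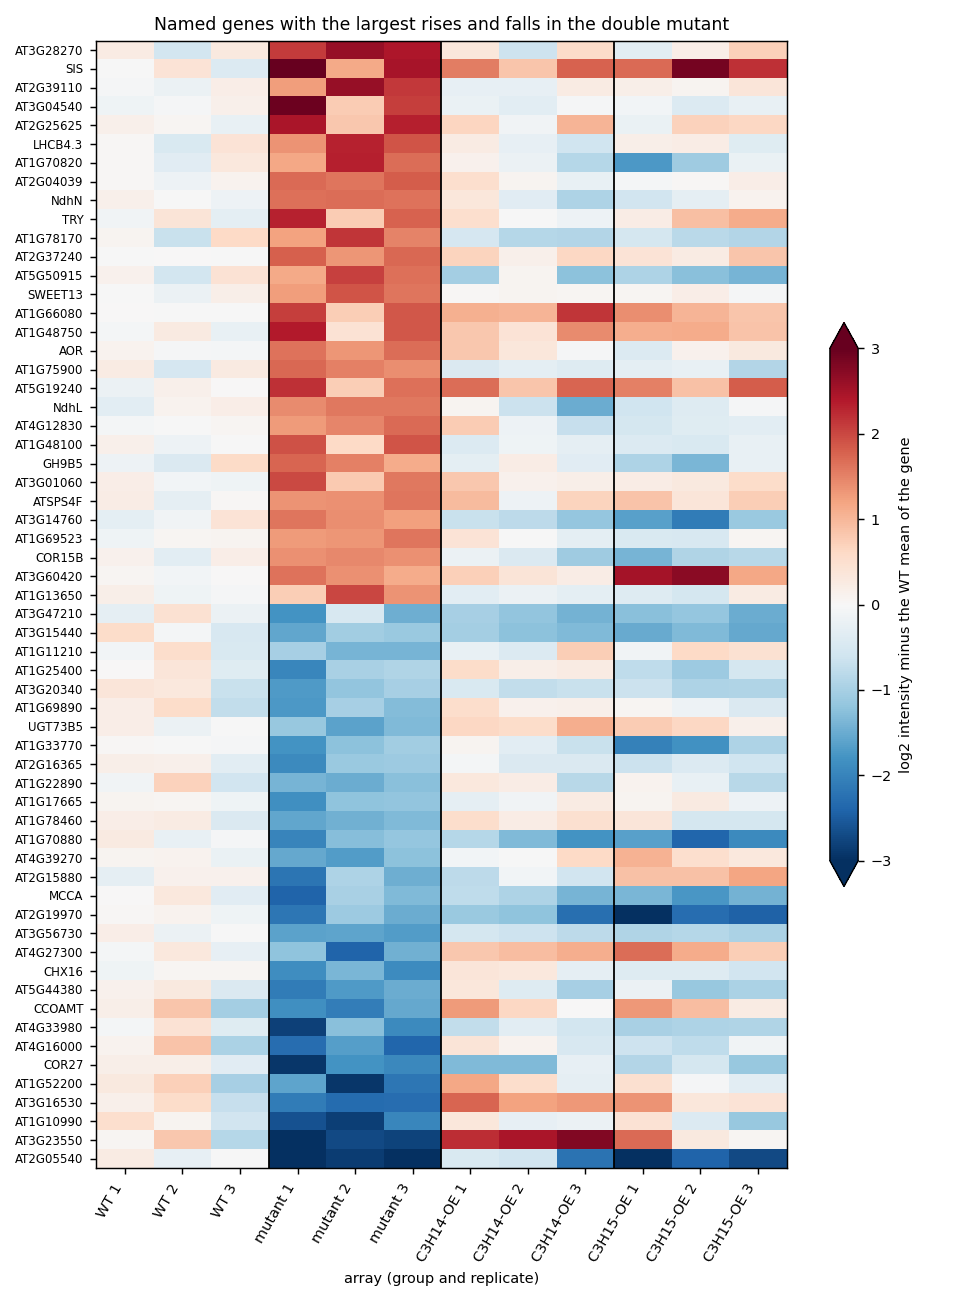
Rows are the named genes with the 30 largest rises and 30 largest falls, columns the 12 arrays, and colour the log2 intensity minus the WT mean of the gene. The mutant columns are red in the upper and blue in the lower block, while the overexpressor columns resemble WT for NdhN and SWEET13 and the mutant for SIS and AT2G19970.

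One named gene passed under every setting tried. AT3G56730 read 6.80, 6.44 and 6.59 in WT and 5.01, 5.02 and 4.93 in the mutant. It was 3.08-fold lower (-1.62, SE 0.11, adjusted p = 0.00018), and without both low-spike arrays it stood at -1.50 (adjusted p = 0.0112). The overexpressors lay between the groups, at 5.65 to 6.08, so the mutant was lowest and WT highest. Of the 666 calls on probe sets with 1 named gene, 142 remained called with each of the 12 arrays left out in turn. Of the genes with a locus code, 16 had several such probe sets and at least 1 call. In 14 of these 16 all probe sets had the same sign. In 1 of the 16, AT1G51110, every probe set passed. Mitochondrial genes, which carry no locus code here, were not counted. Among those, both probe sets of nad5 passed, while those of nad1 passed only in part.

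**Figure D5:**
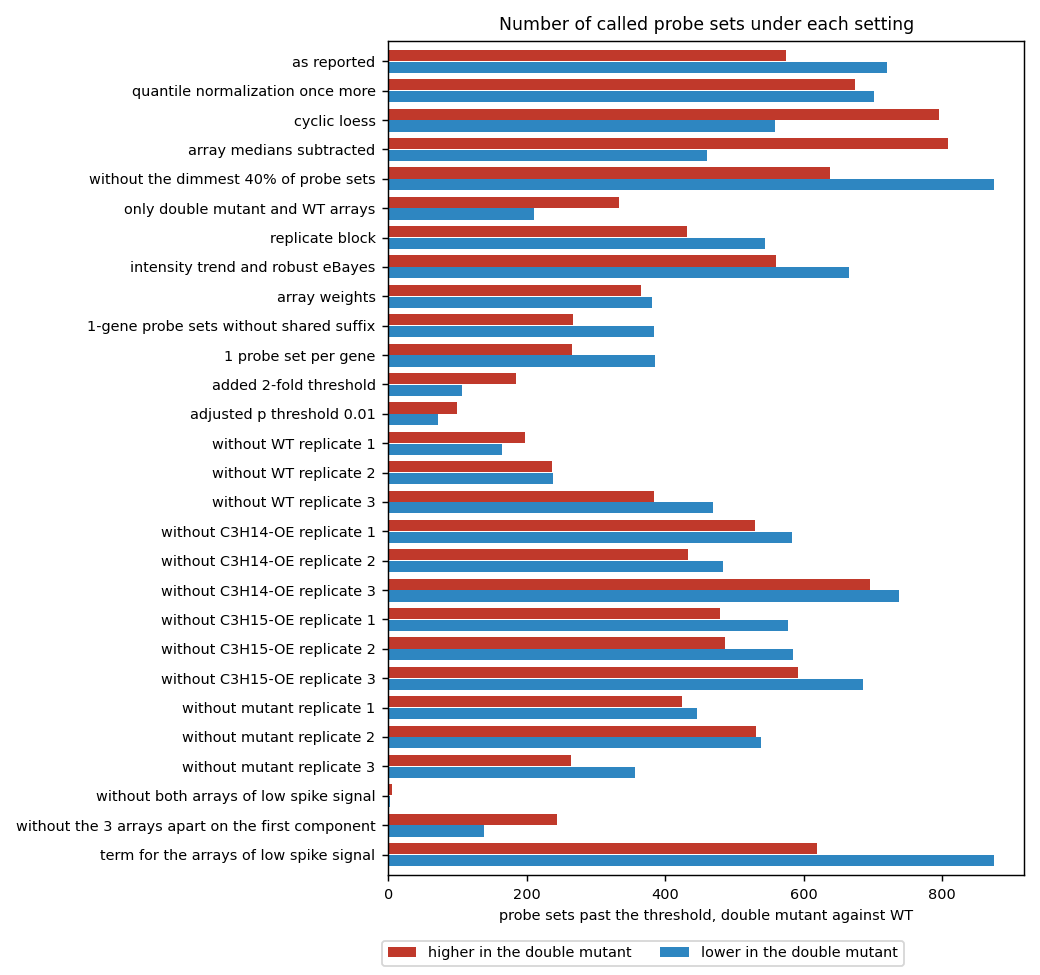
Horizontal bars, starting at 0, give the number of probe sets higher (red) and lower (blue) in the mutant than in WT under each setting on the y axis. The counts fall from 575 and 721 to 5 and 3 when both low-spike arrays are left out and are 619 and 875 with a term for these arrays.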

How the data were processed

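Per the submitters' processing notes, RMA was used to normalize the arrays, and the authors deposited 1 intensity per probe set and array on a linear scale. The sources used here do not give the software or its version. The log2 of each deposited intensity was taken here, without a filter, for the 22746 probe sets that are not controls. limma 3.58.1 in R 4.3.3 fitted the 4 group means over all 12 arrays (8 residual degrees of freedom, prior 3.61). Contrasts were the double mutant minus WT and minus the mean of both overexpressors, with Benjamini-Hochberg adjustment over all probe sets and a threshold of 0.05. The p-values are moderated by eBayes, and both the number of arrays and the spread between them limit the precision.

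The platform annotation gives 1 gene for 13513 probe sets, several for 503 and none here for 8730. Of the 13513, 13484 matched RefSeq (TAIR10.1) and 29 kept an older name. A gene in a list is read from its brightest probe set with 1 gene. No sequences are shown.

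The members and gene lists were chosen with earlier results of these data known. Named genes were the 30 largest rises and falls among calls without overlap, those of smallest adjusted p, called list members and the next largest, all members of small lists, genes with several probe sets, and C3H14. Other called genes were chosen after their values were seen. Alternatives covered scaling, dim probe sets, the arrays fitted, weights, a replicate block, thresholds and left-out arrays. Leaving out or modelling WT replicate 1 and mutant replicate 3, and leaving out 3 arrays apart on the first principal component, were chosen after seeing the data. The fit was also run on simulated data with independent errors, so that run does not cover deviations that arrays share.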

Additional observations from a re-analysis of the deposited data

How the results depend on the processing

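All 1296 calls of the mutant against WT kept their sign in every alternative that tested them, but their number changed. For the 1294 calls without overlap, leaving out or weighting arrays could not reverse the sign. Thresholds and the choice of probe sets leave the difference itself unchanged. Only where the arrays were rescaled could such a sign have changed. Against 575 higher and 721 lower, counts were 333 and 211 with only mutant and WT arrays, 365 and 381 with array weights, 267 and 384 for 1-gene probe sets without a shared suffix, 265 and 385 with 1 probe set per gene, 184 and 106 with a 2-fold threshold and 100 and 72 at 0.01. Leaving out both low-spike arrays gave 5 and 3, leaving out WT replicate 2, C3H14-OE replicate 3 and mutant replicate 1 gave 244 and 139, and subtracting array medians gave 461 lower. Leaving out each array in turn gave 197 to 696 higher and 164 to 738 lower. Fewer arrays or probe sets enter several of these fits, and the cause of the other changes was not tested.

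Against the mean of the overexpressors, counts of 2725 higher and 3072 lower became 1416 and 1576 for 1-gene probe sets, 1429 and 1575 with 1 probe set per gene, 610 and 441 at 2-fold and 1234 and 1452 at 0.01. The higher count was 4619 after subtracting array medians and 1742 without the low-spike arrays. Single arrays left out gave 1819 to 2803 higher and 2032 to 3097 lower. The lowest higher count came without mutant replicate 3 and the lowest lower count without mutant replicate 2.

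A replicate block gave 431 higher and 544 lower against WT and 2470 and 2887 against the overexpressors. Arrays of the same number deviated together (correlation over 0.1) in 4 of 18 pairs, so the numbers do not pair the samples. Mutant and WT arrays of other numbers did deviate together, WT 1 with mutant 3 (r = 0.57 over probe sets), WT 2 with mutant 1 (0.52) and WT 3 with mutant 2 (0.44), while the other 6 such pairs lay at -0.35 to -0.12. The labels give no such pairing, the fits treat these arrays as independent, and the cause was not tested.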

Other observations

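Some called genes belong to none of the groups above and were chosen after their values were seen. SDP1, a lipase that acts on stored oil, and TGH, which is not a lipase, both fell by 0.79 (limma adjusted p = 0.00947 and 0.00518). SHN3, an AP2 factor of the cuticle-regulating SHINE clade, read 6.22, 5.34 and 6.09 in WT and 6.98, 7.24 and 7.51 in the mutant and rose by 1.36 (adjusted p = 0.0145). WSD1, a wax ester synthase and the only named epidermis marker of 7, stood at 1.25 without passing (adjusted p = 0.0587). HAT2, an auxin-responsive homeodomain factor, fell by 1.06 (adjusted p = 0.0281).

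PDF1B, a peptide deformylase, and MAP1B, a methionine aminopeptidase, which process the starts of new proteins in plastids, rose by 0.75 (adjusted p = 0.0205) and 0.82 (adjusted p = 0.00861).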
